A study of Mus musculus with 8 samples.

Results

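The 83 genes described here are the ADAM, ADAMTS, ADAMTS-like (ADAMTSL), MMP and TIMP genes of the mouse, taken by symbol from the 37282 gene symbols measured in embryonic trachea. They comprised 32 ADAM, 19 ADAMTS, 5 ADAMTSL, 23 MMP and 4 TIMP genes. Whole dissected tracheae were profiled by RNA sequencing in 4 groups of 2 libraries, namely WlsShhCre and control embryos at E13.5 (E gives the embryonic day) and WlsShhCre and control embryos at E11.5. Wls encodes the carrier protein on which the secretion of Wnt proteins depends, and Cre made from the Shh locus acts in the airway epithelium, so that Wls is lost from that layer while the surrounding mesenchyme keeps it. The labels give no further allele for the controls, no strain and no statement on whether a library is 1 embryo or a pool. P-values therefore measure the spread between these libraries, which may be technical.

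ADAM proteins are membrane proteases that release growth factors, receptors and adhesion molecules from the cell surface, although several members lack an active site. ADAMTS proteins are secreted and cut proteoglycans and procollagens, the ADAMTSL proteins share their ancillary domains without a protease domain, and MMPs cut collagens and other matrix and cell-surface proteins. TIMPs inhibit these proteases, and TIMP3 is the one that binds the matrix and inhibits ADAM and ADAMTS enzymes as well as MMPs. In the trachea these enzymes and inhibitors act in the matrix from which cartilage rings, smooth muscle and the epithelial basement membrane are built.

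Library totals were 18.48 and 16.76 M estimated counts in E13.5 WlsShhCre and 10.58 and 10.62 M in E13.5 controls. They were 9.898 and 11.43 M in E11.5 WlsShhCre and 10.96 and 11.9 M in E11.5 controls. Wls itself stood at 73.9 and 71.8 CPM (counts set relative to library size) in E13.5 WlsShhCre against 168 and 158 CPM in E13.5 controls, and at 118 and 109 CPM in E11.5 WlsShhCre against 155 and 164 CPM in E11.5 controls, lower in the mutants of both stages. The E13.5 WlsShhCre libraries differed from each other in Xist, the RNA of the inactive X chromosome, at 6.34 and 1224 CPM, against 2673 and 1841 CPM in E13.5 controls. The Y-linked gene Ddx3y had 106.5 and 66.8 CPM in E13.5 WlsShhCre against 19.9 and 48.2 CPM in E13.5 controls. At E11.5, Xist had 846 and 526 CPM in WlsShhCre against 1168 and 1847 CPM in controls. Ddx3y there had 52.2 and 61.8 CPM against 43.2 and 32.8 CPM. Apart from E13.5 WlsShhCre replicate 1, each library thus held RNA of both sexes, and the number of embryos in a library is not known.

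Of the 83 genes, 54 had enough counts to be tested: 16 ADAM, 18 ADAMTS, 5 ADAMTSL, 12 MMP and 3 TIMP genes. Another 15 had between 1 and 64 counts summed over the 8 libraries and never more than 18 in one library. These included the gelatinase Mmp9 with 64 counts, the collagenase Mmp8 with 26, the macrophage elastase Mmp12 with 1 and the collagenase Mmp13 with 1. The only count of Mmp12 and that of Mmp13 were in E13.5 controls, and the only count of Mmp20 and that of Mmp21 were in E11.5 controls, too few for any comparison. The remaining 14 had no count in any library. They were Adam18, Adam24, Adam25, Adam26a, Adam26b, Adam29, Adam34, Adam39, Adam6a, Adam6b, Mmp10, Mmp1a, Mmp1b and Mmp3.

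Levels of different genes were set side by side as RPKM, which divides a count by gene length and by library size. The mean over the 8 libraries was at least 1 RPKM for 43 genes and at least 10 RPKM for 19. The gelatinase Mmp2 led with a mean of 108.7 RPKM, followed by Mmp14 at 92.95 RPKM, the membrane-anchored protease that activates pro-MMP2, and by Timp2 at 58.99 RPKM, the inhibitor that takes part in this activation. Mmp2 measured 125.6 and 112.8 RPKM in E13.5 WlsShhCre, 123.7 and 124.4 RPKM in E13.5 controls, 95.59 and 85.89 RPKM in E11.5 WlsShhCre and 100.7 in each of the E11.5 controls. The genotypes overlapped at E13.5, and both E11.5 groups lay below both E13.5 groups.

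The leading genes of the other families stood below these. Adam10, the sheddase that cuts Notch and cadherins, averaged 44.02 RPKM, and its 8 libraries lay between 40.01 and 46.12 RPKM. Adamts1, a protease of versican and aggrecan, averaged 37.34 RPKM. Mmp11 (stromelysin-3) averaged 37.28 RPKM, Timp3 34.4 RPKM and Adamts10, which is tied to fibrillin microfibrils, 31.4 RPKM. Adamts2, the main procollagen N-proteinase, averaged 4.139 RPKM and Adamtsl3 7.344 RPKM. Mmp2 and Mmp14 ranked first and second in each of the 4 groups.

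**Figure D1:**
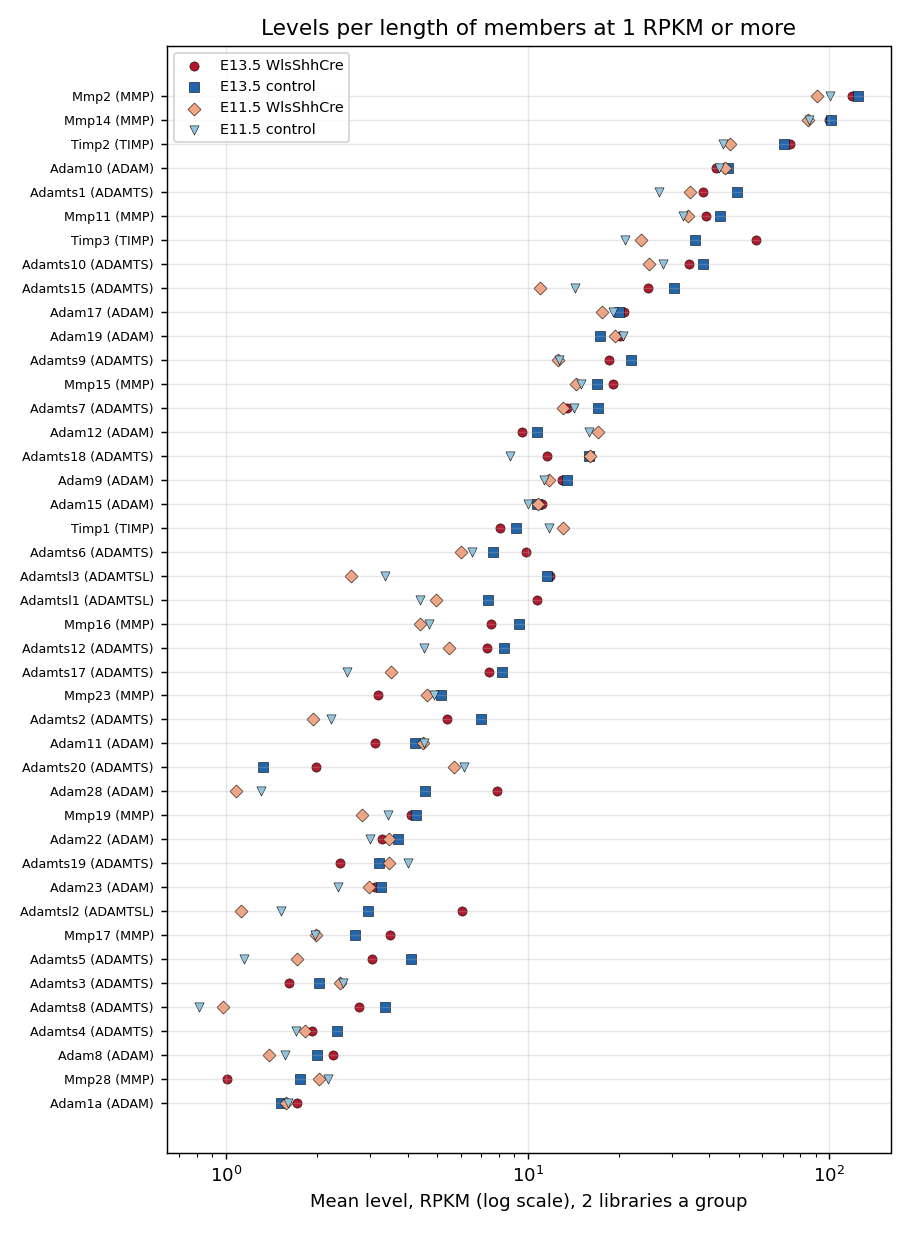
Mean RPKM of the 43 genes at 1 RPKM or more, on a log axis, with 1 symbol for each of the 4 groups of 2 libraries. Mmp2 and Mmp14 lead in every group, and Timp3 is set apart from its neighbours in the order by its E13.5 WlsShhCre mean of 57.04 RPKM.

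The first comparison asks which of these genes differed between WlsShhCre and control tracheae at E13.5, when tracheal cartilage and muscle are forming. Of the 54 tested genes, 8 were called at an adjusted p under 0.05 (edgeR quasi-likelihood test, Benjamini-Hochberg adjustment over 14901 genes), which is 14.8%, beside 11.8% of all genes. The share of called genes was thus near the background. Timp3, Adam28, Adamtsl1 and Adamts6 rose in WlsShhCre, 4 of 54 beside 5.97% of all genes, and Adam11, Adamts7, Mmp16 and Mmp7 fell, 4 of 54 beside 5.81%. The median log2 fold change of the 54 was -0.15, beside -0.0024 over all genes tested, and 17 of the 54 (31.5%) lay above 0, beside 49.1% of all genes.

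Other tissue markers moved with genotype at E13.5. Of the 13 epithelium markers 11 were higher, with summed levels of 1501 and 1538 CPM in WlsShhCre against 971 and 1022 CPM in controls. Of the 8 smooth muscle markers 5 were higher, at 2242 and 2667 CPM in WlsShhCre against 1012 and 1143 CPM in controls. Of 7 tested cartilage markers 3 were lower, with sums of 873 and 544 CPM in WlsShhCre against 1242 and 1277 CPM in controls, and 3 of 9 endothelium markers were lower, with sums of 316 and 361 CPM against 443 and 507 CPM. No marker of these 4 lists was at 0 in both libraries of either E13.5 group. Of the remaining lists, 1 of 11 myeloid markers, 1 of 6 cardiac and 1 of 7 erythroid markers were lower, 1 of 9 neuron and glia markers was higher, and none of 7 skeletal muscle markers or 5 sex-linked genes was called. Few calls did not mean like levels. Cardiac markers summed to 311 and 74.4 CPM in WlsShhCre against 1107 and 476 CPM in controls, with 0 of 6 above 0. Erythroid markers summed to 747 and 820 CPM against 1606 and 1241 CPM, with 0 of 7 above 0. Skeletal muscle markers summed to 486 and 183 CPM against 136 and 120 CPM, with 7 of 7 above 0. Of the 5 sex-linked genes, the 4 Y-linked ones were above 0 and Xist was below 0, with a median log2 fold change of 1.29. The Y-linked gene Uty had 43.9 and 29.9 CPM in WlsShhCre against 9.27 and 19.1 CPM in controls. The mix of sexes thus differed between the genotypes at E13.5. In a whole-organ library, fewer cells of a type and less RNA per cell cannot be told apart, and the part of these markers in the results on the metalloprotease genes was not tested.

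Timp3, the matrix-bound inhibitor, had the smallest p of the 54. It stood at 254 and 273 CPM in E13.5 WlsShhCre and 162 and 171 CPM in E13.5 controls. Both mutant libraries lay well above both controls, and the log2 fold change was 0.66 ± 0.07 (SE; edgeR adjusted p = 3.22e-05). In every alternative tried Timp3 remained called, with an adjusted p of at most 0.000836. The exons of Timp3 share 21.3% of their bases with those of Syn3, a synapsin gene on the opposite strand, and the library kit does not mark strand, so reads there cannot be told apart. Syn3 had 22.1 and 21.4 CPM in E13.5 WlsShhCre against 16.0 and 16.4 CPM in E13.5 controls, a lower level than that of Timp3 in the same libraries. Like Timp3, Syn3 was called higher, at a log2 fold change of 0.42 ± 0.11 (SE; edgeR adjusted p = 0.0201). The part of shared reads in either result was not tested.

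The other inhibitors did not pass the test at E13.5. Timp2 had 261 and 269 CPM in E13.5 WlsShhCre against 252 and 255 CPM in controls, with a log2 fold change of 0.06 ± 0.05 (SE; adjusted p = 0.542). Timp1, a secreted inhibitor encoded on the X chromosome, had 6.93 and 7.26 CPM in WlsShhCre against 9.08 and 7.12 CPM in controls, and the ranges overlapped (adjusted p = 0.547). Timp4 was not tested and had 13 and 9 counts in E13.5 WlsShhCre against 9 and 18 counts in controls. Summed over the 4 genes, TIMP levels were 135.6 and 143.7 RPKM in E13.5 WlsShhCre and 116.0 and 116.6 RPKM in E13.5 controls, and Timp3 was the one with a called difference.

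Windows from 250 bases before to 50 bases after the start of a gene are shown for the called inhibitor and for the protease with no count in the E13.5 mutants, since these are called genes for which the RefSeq table (GRCm38.p6) holds a window. Capitals mark a match to the binding motif of TCF/LEF factors, the nuclear effectors of Wnt signalling, searched as CTTTGAA and CTTTGAT on both strands. The Timp3 window is chr10:86300162-86300461 and the Mmp7 window chr9:7691840-7692139, both on the plus strand, and bases are written 5′ to 3′.
Timp3: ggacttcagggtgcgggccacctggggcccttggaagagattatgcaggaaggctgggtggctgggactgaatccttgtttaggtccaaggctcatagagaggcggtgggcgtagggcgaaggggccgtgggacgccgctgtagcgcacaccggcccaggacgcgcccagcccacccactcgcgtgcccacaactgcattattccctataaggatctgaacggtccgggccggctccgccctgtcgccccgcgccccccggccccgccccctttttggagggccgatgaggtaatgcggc
Mmp7: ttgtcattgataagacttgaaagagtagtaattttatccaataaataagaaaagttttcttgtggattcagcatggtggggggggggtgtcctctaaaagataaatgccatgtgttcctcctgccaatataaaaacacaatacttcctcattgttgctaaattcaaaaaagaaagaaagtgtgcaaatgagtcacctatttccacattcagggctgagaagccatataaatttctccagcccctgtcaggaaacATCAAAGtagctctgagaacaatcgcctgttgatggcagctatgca
The Mmp7 match, ATCAAAG, is the reverse complement of CTTTGAT and begins 4 bases after the gene start in the window shown. The table holds a second, overlapping Mmp7 window with a later start, chr9:7692091-7692390, in which the same match lies at position -247 relative to the start. The Timp3 window holds no match and is 67.0% G and C, against 39.0% in the Mmp7 window and a median of 52.7% over all windows. The motif was found in 2842 of 32851 windows (8.65%), and Mmp7 was the one gene with a match among the 33 of 54 tested genes that have a window. A match describes the letters in the window and is not evidence of binding. Adamts1, described further on, also has a window, without a match, while Adam28, Adamtsl1, Adamts6, Adam11, Adamts7 and Mmp16 were not matched in the table.

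Among the ADAM genes, Adam28 rose and Adam11 fell. Adam28, a protease first described in lymphocytes and also made by epithelia, had 32.4 and 27.8 CPM in E13.5 WlsShhCre and 18.2 and 16.9 CPM in E13.5 controls. The groups were well separated, with a log2 fold change of 0.78 ± 0.13 (SE; adjusted p = 0.00175), and the call remained in every alternative, with an adjusted p of at most 0.0235. Adam11, a member without an active site that is best known in neurons, had 16.2 and 15.2 CPM in WlsShhCre against 20.5 and 22.5 CPM in controls. Both mutants lay below both controls, at a log2 fold change of -0.45 ± 0.11 (SE; adjusted p = 0.0131). That call was lost with DESeq2 (adjusted p = 0.105) and without E13.5 WlsShhCre replicate 2 or E13.5 control replicate 2, with an adjusted p of up to 0.112. The sheddases Adam10 and Adam17 were not called. Adam17, which releases TNF and EGF receptor ligands, had 91.6 and 90.3 CPM in WlsShhCre against 83.6 and 92.8 CPM in controls, and the groups overlapped.

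The 18 tested ADAMTS genes lay mostly below 0 at E13.5, with 3 of 18 above 0 and a median log2 fold change of -0.29, but 2 passed the test, 1 in each direction. Adamts6, a protease of the subfamily that acts on fibrillin-associated matrix, had 66.4 and 59.5 CPM in WlsShhCre and 49.8 and 48.6 CPM in controls. It rose by 0.35 ± 0.08 on the log2 scale (SE; adjusted p = 0.00724). Adamts7, which can cut cartilage oligomeric matrix protein, had 73.3 and 68.7 CPM in WlsShhCre and 84.4 and 96.9 CPM in controls, and the log2 fold change was -0.35 ± 0.07 (SE; adjusted p = 0.00568). In each of the 2 genes the groups did not overlap. Adamts6 lost its call with DESeq2 (adjusted p = 0.0566) and without E13.5 WlsShhCre replicate 1 or control replicate 2 (up to 0.0823), and Adamts7 without E13.5 control replicate 2 (0.0843).

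Adamts1 fell just outside the threshold at E13.5. It had 162 and 206 CPM in WlsShhCre against 240 CPM in each control, both mutants below both controls, with a log2 fold change of -0.39 ± 0.11 (SE; adjusted p = 0.0509). DESeq2, limma-voom, another scaling of library size and the fit with the replicate number as a block called it. It was not called without a filter on low counts, with only the 4 E13.5 libraries, or in 7 of the 8 fits that left out a library, the exception being the fit without E13.5 WlsShhCre replicate 2. The procollagen N-proteinase Adamts2 had 19.72 and 20.01 CPM in WlsShhCre and 27.5 and 24.6 CPM in controls, again without overlap, and an edgeR adjusted p of 0.0694. Adamts2 was called by limma-voom and with only the 4 E13.5 libraries, while DESeq2 did not call it. Summed over the 19 genes, ADAMTS levels were 183.9 and 190.5 RPKM in E13.5 WlsShhCre and 223.3 and 223.9 RPKM in E13.5 controls. None of the 7 genes listed as proteoglycan proteases was called at E13.5, with 2 at an unadjusted p under 0.05, Adamts1 lower and Adamts20 higher. Adamts20 had 14.6 and 19.8 CPM in WlsShhCre against 10.5 and 12.6 CPM in controls. Its log2 fold change was 0.58 ± 0.17 (SE; edgeR adjusted p = 0.0659). DESeq2 and the fit with the replicate number as a block called Adamts20, while limma-voom did not.

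Of the 5 ADAMTSL genes, Adamtsl1 rose. It had 80.9 and 85.7 CPM in E13.5 WlsShhCre and 52.8 and 61.9 CPM in E13.5 controls. The lower mutant library exceeded the higher control, and the log2 fold change was 0.54 ± 0.11 (SE; adjusted p = 0.0111). Without E13.5 control replicate 1 the adjusted p was 0.0851. Adamtsl2, which binds fibrillin and latent TGF-beta complexes, had 24.7 and 14.0 CPM in WlsShhCre against 12.0 and 7.03 CPM in controls, with replicates far apart within both groups. Its log2 fold change was 1.03 ± 0.36 (SE; edgeR adjusted p = 0.140). DESeq2 and the fit with the replicate number as a block called Adamtsl2, while limma-voom did not. Adamtsl3, the gene of this family with the highest level, had 79.3 and 90.7 CPM in WlsShhCre against 77.4 and 90.4 CPM in controls.

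Of the 12 tested MMP genes, Mmp16 and Mmp7 fell and none rose. Mmp16, a membrane-type MMP, had 45.2 and 48.5 CPM in E13.5 WlsShhCre and 60.2 and 56.4 CPM in E13.5 controls. The groups did not overlap, at a log2 fold change of -0.32 ± 0.08 (SE; adjusted p = 0.0236). This call was lost with DESeq2 (adjusted p = 0.153) and without E13.5 WlsShhCre replicate 1 or either E13.5 control, with an adjusted p of up to 0.193. Mmp14, which leads the membrane-type group, had 347 and 371 CPM in WlsShhCre against 360 and 374 CPM in controls, a log2 fold change of -0.03 ± 0.06 (SE).

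Mmp7 (matrilysin), a small secreted MMP of glandular and gut epithelia and a known target of Wnt signalling in intestinal tumours, was at the edge of detection. It had 0 counts in both E13.5 WlsShhCre libraries and 13 counts over the E13.5 controls, at 0.375 and 0.844 CPM. Against a floor of 3 counts over the mutant group, which is 0.0851 CPM, Mmp7 was at least 7.2-fold lower in WlsShhCre (edgeR adjusted p = 0.0197). Floors cover counting error only. At E11.5 it was present in both genotypes, with 1.93 and 0.617 CPM in WlsShhCre and 1.29 and 0.858 CPM in controls. The E13.5 call was lost without either E13.5 WlsShhCre library and without E13.5 control replicate 2 (adjusted p up to 0.122). With only the 4 E13.5 libraries Mmp7 did not pass the filter on low counts and had no test. Intestine markers moved with Mmp7. Of 12 tested, 11 were lower at E13.5, with summed levels of 18.3 and 23.5 CPM in WlsShhCre against 62.5 and 59.2 CPM in controls, and Apoa4, Sis, Cdx1 and Cdx2 were at 0 in both E13.5 WlsShhCre libraries and above 0 in both E13.5 controls. Muc2 was at 0 in all 8 libraries. Their part in the Mmp7 result was not tested.

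**Figure D2:**
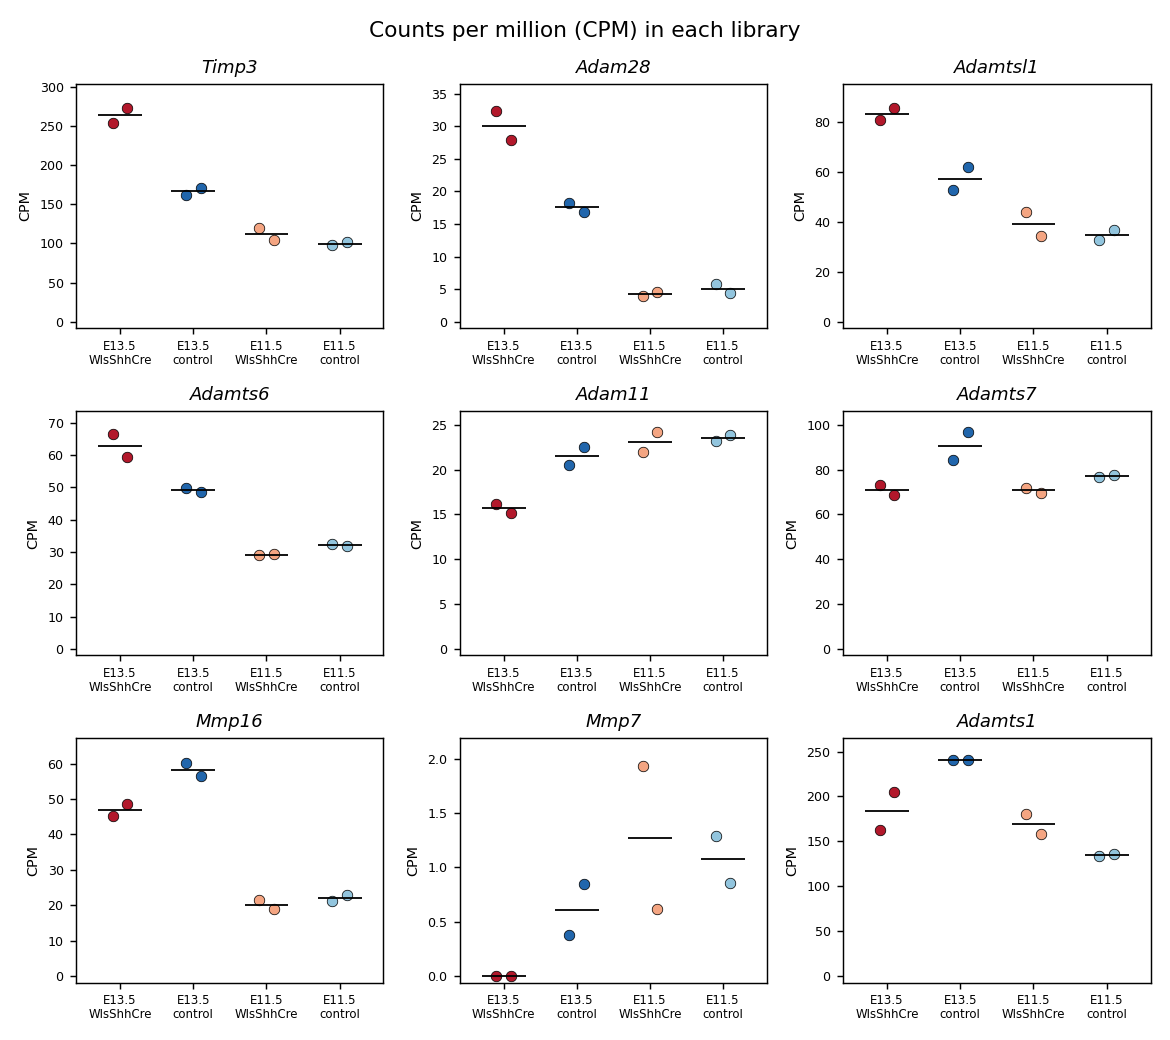
CPM of the 8 genes called at E13.5 and of Adamts1 in each of the 8 libraries, with bars at the group means (2 libraries a group; each panel has its own axis from 0). Timp3 at 254 and 273 CPM and Adam28 at 32.4 and 27.8 CPM are highest in E13.5 WlsShhCre, and Mmp7 has no count there.

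At E11.5, before cartilage and most smooth muscle have formed, none of the 54 genes was called between WlsShhCre and control (edgeR), beside 0.362% of all genes, of which 0.0738% were higher and 0.289% lower. DESeq2 and limma-voom also called 0, and 9 genes had an unadjusted p under 0.05 in edgeR. The share of all genes under that unadjusted threshold was not counted, so the 9 cannot be read as a trait of these families. The median log2 fold change was -0.024, and 25 of 54 genes lay above 0. The 9 genes included Adamts12, Adam23, Adam22, Adamts16 and Adamts18 with higher means in WlsShhCre, and Mmp2 and Adamts15 with lower means. Tissue markers also leaned with genotype at E11.5. Above 0 were 9 of 9 neuron and glia markers (median log2 fold change 0.64) and 11 of 11 myeloid markers (0.53). None of 8 smooth muscle markers (-0.55), 7 cartilage markers or 7 erythroid markers was above 0, beside 50.2% of all genes. Other lists were less one-sided. Dcx, higher, and Cnn1, lower, were the called markers. The part of these markers in the E11.5 results and in the interaction was not tested. Timp3 had 120 and 105 CPM in E11.5 WlsShhCre and 98.2 and 101 CPM in E11.5 controls, without overlap, at a log2 fold change of 0.17 ± 0.07 (SE; adjusted p = 0.585). Adamts1 had 181 and 158 CPM in E11.5 WlsShhCre and 134 and 136 CPM in E11.5 controls, at 0.32 ± 0.11 (SE; adjusted p = 0.450 by edgeR). With the 4 E11.5 libraries alone Adamts1 was called (adjusted p = 0.0442), as it was without E13.5 WlsShhCre replicate 1 (0.0425) or 2 (0.0429). Leaving out other libraries called Adamts15 without E11.5 WlsShhCre replicate 1 (adjusted p = 0.00216) and Adamts17 without E11.5 WlsShhCre replicate 2 (adjusted p = 0.0134).

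The genotype effects of the stages were then compared directly, by the stage by genotype interaction. It was called for 4 of the 54 genes (7.41%), beside 3.34% of all genes, 3 with a more positive effect at E13.5 (1.63% of all genes) and 1 with a more negative one (1.7%). Adam28 had a genotype effect of 0.78 at E13.5 and -0.27 at E11.5, a difference of 1.05 ± 0.24 on the log2 scale (SE; edgeR adjusted p = 0.0279). Timp3 had 0.66 at E13.5 and 0.17 at E11.5, a difference of 0.49 ± 0.10 (SE; adjusted p = 0.0138). For Adamts6 the effects were 0.35 at E13.5 and -0.14 at E11.5, a difference of 0.49 ± 0.11 (SE; adjusted p = 0.0310).

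Adamts1 was the one called gene whose difference ran the other way, with a genotype effect of -0.39 at E13.5 and 0.32 at E11.5. The difference was -0.71 ± 0.15 (SE, edgeR adjusted p = 0.0452). Its mutants were below the controls at E13.5 and above them at E11.5, in both libraries of each group. Adamts5, the aggrecanase gene next to Adamts1 in the RefSeq gene order, had 18.43 and 30.02 CPM in E13.5 WlsShhCre against 34.4 and 31.6 CPM in E13.5 controls, and 16.5 and 11.6 CPM in E11.5 WlsShhCre against 8.845 and 10.04 CPM in E11.5 controls. Its mutants also lay below the controls at E13.5 and above them at E11.5, but the interaction of -1.01 ± 0.39 (SE) was not called (adjusted p = 0.286). The pattern was not particular to these neighbours. Adamts18, Adamts12 and Adam22, which do not lie next to Adamts1, had the same order of libraries at both stages. Their interactions were -1.34, -0.45 and -0.39, and none was called (edgeR adjusted p = 0.261, 0.0682 and 0.153). How many of all genes have this order was not counted. Each of the 4 called differences was lost in some alternative. That of Timp3 was lost without E11.5 control replicate 2 or E13.5 control replicate 1, with an adjusted p of at most 0.0605. The differences of Adam28 and Adamts6 were lost with DESeq2 and with limma-voom, with an adjusted p among these of up to 0.128 for Adam28 and 0.193 for Adamts6, and that of Adamts1 without a filter on low counts (0.0591). Over the libraries left out in turn, the adjusted p reached 0.176 for Adam28, 0.174 for Adamts1 and 0.115 for Adamts6, and E13.5 control replicate 1 and 2 were among the libraries without which each of these 3 was lost.

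**Figure D3:**
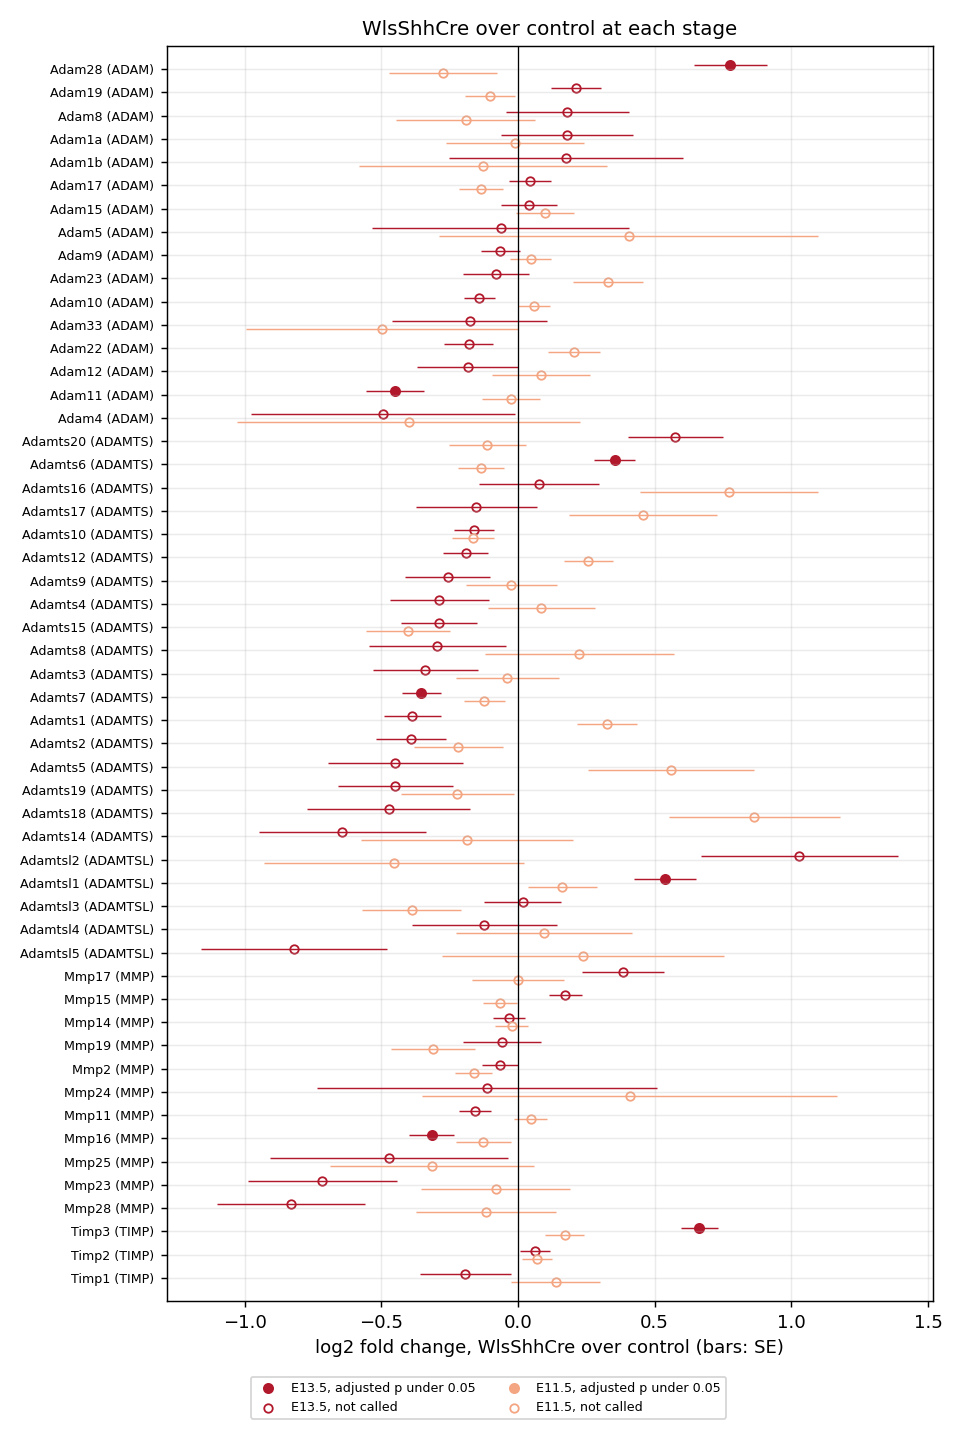
Log2 fold change of WlsShhCre over control with its SE for 53 tested genes, at E13.5 and at E11.5, by family (Mmp7, with no count in 1 group, is left out). Filled symbols are called; all 7 are at E13.5, with Adam28 at 0.78 and Timp3 at 0.66 the farthest to the right among them.

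The stage comparisons ask how the same genes differed between E13.5 and E11.5 within a genotype. In WlsShhCre, 35 of 54 genes (64.8%) were called, 26 higher and 9 lower at E13.5, beside 48.5% of all genes, with 23.9% higher and 24.5% lower. In controls, 31 of 54 (57.4%) were called, 28 higher and 3 lower at E13.5, beside 42.4% of all genes, with 21.4% higher and 21% lower. The median log2 fold change of the 54 was 0.32 in WlsShhCre and 0.41 in controls, beside 0.0064 and 0.0026 over all genes, and 41 and 42 of the 54 lay above 0. The genotypes shared 22 called genes, all in the same direction, out of the 35 and out of the 31. The same overlap over all genes was not counted, so the 22 cannot be read as a trait of these families. The stages were counted in separate tables, and the gene model length implied by count and density differed between them for 6 of the 65 genes where it could be compared, which touches the stage effects of Adamts6, Adamts9, Adamts12, Adamts18, Mmp14 and Mmp16.

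Tissue markers moved with stage as well. All 13 epithelium markers were higher at E13.5 in WlsShhCre and 12 of 13 in controls, with summed levels of 1501 and 1538 CPM in E13.5 WlsShhCre against 561 and 643 CPM in E11.5 WlsShhCre, and 971 and 1022 CPM in E13.5 controls against 589 and 488 CPM in E11.5 controls. Of the 8 smooth muscle markers, 8 were higher in WlsShhCre, at 2242 and 2667 CPM at E13.5 against 341 and 276 CPM at E11.5, and 6 in controls, at 1012 and 1143 CPM at E13.5 against 380 and 487 CPM at E11.5. Erythroid markers were lower at E13.5, 6 of 7 in each genotype, with sums of 747 and 820 CPM against 5288 and 3084 CPM in WlsShhCre and of 1606 and 1241 CPM against 5258 and 8240 CPM in controls.

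Endothelium markers were lower at E13.5, 9 of 9 in WlsShhCre, with sums of 316 and 361 CPM against 613 and 488 CPM at E11.5, and 3 of 9 in controls, with sums of 443 and 507 CPM against 586 CPM in each E11.5 library. Myeloid markers were higher at E13.5, 2 of 11 in WlsShhCre, with sums of 100.8 and 132.5 CPM against 95.8 and 84.4 CPM at E11.5, and 11 of 11 in controls, with sums of 155 and 135 CPM against 64.5 and 66.2 CPM. No marker of these 5 lists was at 0 in both libraries of any group. Of 7 cartilage markers, 2 were higher and 1 lower in WlsShhCre, and 3 higher and 1 lower in controls. Of 12 intestine markers, 11 were lower in WlsShhCre and none was called in controls (edgeR, with none at an unadjusted p under 0.05). Cardiac markers were higher in controls, 5 of 6, with sums of 1107 and 476 CPM against 28.5 and 48.0 CPM. In WlsShhCre none of the 6 was called, with 2 at an unadjusted p under 0.05 (edgeR). Their sums there were 311 and 74.4 CPM against 19.2 and 22.6 CPM. Neuron and glia markers gave 3 higher and 1 lower of 9 in WlsShhCre, and 6 higher and 1 lower in controls. Among 7 skeletal muscle markers, 4 were higher in WlsShhCre and 1 in controls. The part of these markers in the stage effects of the metalloprotease genes was not tested.

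Of the 7 proteases of proteoglycans, 4 were higher and 1 lower at E13.5 in WlsShhCre, and 5 higher and 1 lower in controls. Adamts15 had 146 and 148 CPM in E13.5 WlsShhCre against 77.8 and 53.6 CPM in E11.5 WlsShhCre, and 178 and 181 CPM in E13.5 controls against 86.7 and 86.3 CPM in E11.5 controls. All E13.5 libraries lay above all E11.5 libraries. Adamts8 rose by 1.49 ± 0.29 in WlsShhCre and 2.01 ± 0.30 in controls on the log2 scale (SE), and Adamts5 by 0.79 ± 0.27 and 1.80 ± 0.28. Adamts9 rose by 0.61 ± 0.16 in WlsShhCre and 0.84 ± 0.16 in controls.

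Adamts20, a versican protease known from pigment cell and palate development in mice, went the other way and was the gene with the largest fall in both genotypes apart from Mmp7. It had 14.6 and 19.8 CPM in E13.5 WlsShhCre against 48.7 and 52.3 CPM in E11.5 WlsShhCre, and 10.5 and 12.6 CPM in E13.5 controls against 59.9 and 49.3 CPM in E11.5 controls. The log2 fold change was -1.56 ± 0.15 in WlsShhCre and -2.24 ± 0.17 in controls (SE; edgeR adjusted p = 2.58e-05 and 7.87e-06). Adamts1 differed between the genotypes, with 0.12 ± 0.11 in WlsShhCre (adjusted p = 0.395) and 0.83 ± 0.11 in controls (SE; adjusted p = 0.000429), which is the interaction given above, seen from the stages.

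Of the 3 procollagen N-proteinases, 1 was higher and 1 lower at E13.5 in WlsShhCre and 2 were higher in controls. Of the 8 remaining tested ADAMTS genes, 5 were higher and 1 lower in WlsShhCre and 6 were higher in controls. Adamts2 had 19.72 and 20.01 CPM in E13.5 WlsShhCre against 7.02 and 7.58 CPM in E11.5 WlsShhCre, and 27.5 and 24.6 CPM in E13.5 controls against 7.28 and 9.70 CPM in E11.5 controls. That is a rise of 1.44 ± 0.15 in WlsShhCre and 1.61 ± 0.14 in controls on the log2 scale (SE). Adamts14, of the same group, had 0.90 in WlsShhCre without a call and rose by 1.36 ± 0.34 in controls. Adamts16 had 7.20 and 5.33 CPM in E13.5 WlsShhCre against 2.24 and 2.03 CPM in E11.5 WlsShhCre, and 5.99 and 5.90 CPM in E13.5 controls against 1.11 and 1.37 CPM in E11.5 controls. Its rise was 1.55 ± 0.25 in WlsShhCre and 2.25 ± 0.28 in controls, the largest of the controls. Adamts17 rose by 1.06 ± 0.24 in WlsShhCre and 1.67 ± 0.25 in controls, and Adamts12 by 0.27 ± 0.08 and 0.72 ± 0.09.

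The ADAMTSL genes were all above 0 in both genotypes, with 3 of 5 called in WlsShhCre and 4 of 5 in controls. Adamtsl3 had 79.3 and 90.7 CPM in E13.5 WlsShhCre against 21.9 and 16.1 CPM in E11.5 WlsShhCre, and 77.4 and 90.4 CPM in E13.5 controls against 27.55 and 22.05 CPM in E11.5 controls. The stages were far apart in both genotypes, with rises of 2.17 ± 0.16 in WlsShhCre and 1.76 ± 0.16 in controls on the log2 scale (SE). Adamtsl5 rose by 2.099 ± 0.42 and Adamtsl4 by 0.88 ± 0.30 in controls, while Adamtsl1 rose by 1.09 ± 0.12 in WlsShhCre and 0.72 ± 0.12 in controls.

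Among ADAM genes, Adam28 and Adam33 rose in both genotypes. Adam28 had 3.87 and 4.50 CPM in E11.5 WlsShhCre and 5.80 and 4.38 CPM in E11.5 controls, below all E13.5 libraries, and its stage effect was 2.84 ± 0.16 in WlsShhCre and 1.79 ± 0.16 in controls (SE). Adam33, known from human airway mesenchyme and asthma genetics, had 3.92 and 3.86 CPM in E13.5 WlsShhCre against 0.509 and 0.794 CPM in E11.5 WlsShhCre, and 5.05 and 3.75 CPM in E13.5 controls against 1.29 and 0.601 CPM in E11.5 controls. Its stage effect was 2.54 ± 0.39 in WlsShhCre and 2.22 ± 0.37 in controls (SE). Adam12 fell in both genotypes, by 0.87 ± 0.18 in WlsShhCre (SE; adjusted p = 0.0112) and by 0.61 ± 0.18 in controls (adjusted p = 0.0468).

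Among the inhibitors, Timp2 and Timp3 rose in both genotypes. Timp2 rose by 0.63 ± 0.05 in WlsShhCre and 0.64 ± 0.06 in controls on the log2 scale (SE). Timp3 rose by 1.23 ± 0.07 in WlsShhCre and 0.74 ± 0.07 in controls. Timp1 had 6.93 and 7.26 CPM in E13.5 WlsShhCre against 11.8 and 11.6 CPM in E11.5 WlsShhCre and fell by 0.72 ± 0.16 there (adjusted p = 0.00255), while in controls it had 9.08 and 7.12 CPM at E13.5 against 10.04 and 11.15 CPM at E11.5 without a call. Mmp16 had 21.5 and 18.9 CPM in E11.5 WlsShhCre and 21.1 and 22.8 CPM in E11.5 controls, below all E13.5 libraries, and rose by 1.22 ± 0.09 in WlsShhCre and 1.41 ± 0.09 in controls (SE). Mmp2 and Mmp14 rose in both genotypes by no more than 0.36.

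The length difference bore on a few of these values. With the gene model length of each table as an offset, an alternative added after the data were seen, the stage effect of Adamts6 was 0.69 in WlsShhCre, against 1.11 without it, and 0.20 in controls, against 0.62, and the control call was lost (adjusted p = 0.0660). Mmp16 was then 0.76 in WlsShhCre and 0.95 in controls and remained called. Of the 20 genes with the largest stage effects in controls, 17 remained called in every alternative. Adamts14 was lost without E11.5 control replicate 2 or E13.5 control replicate 1 (adjusted p up to 0.0751), Adamts9 without E11.5 control replicate 2 (0.0546), and Adamtsl4 with DESeq2 and without E11.5 control replicate 1, 2 or E13.5 control replicate 1 (up to 0.236). In WlsShhCre, the call of Adamts5 remained in 2 of the 8 fits that left out a library (largest adjusted p 0.229) and was lost without a filter on low counts and with only the 4 WlsShhCre libraries. The WlsShhCre calls of Adamts17, Adamts9 and Adamts12 were lost without E13.5 WlsShhCre replicate 1, with an adjusted p over the libraries left out of up to 0.0602 for Adamts17, 0.0775 for Adamts9 and 0.168 for Adamts12, which was also lost without E11.5 WlsShhCre replicate 2 and with DESeq2 (0.104). With only the 4 WlsShhCre libraries, Adamts17 (0.0506) and Adamts9 (0.0609) were lost too.

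**Figure D4:**
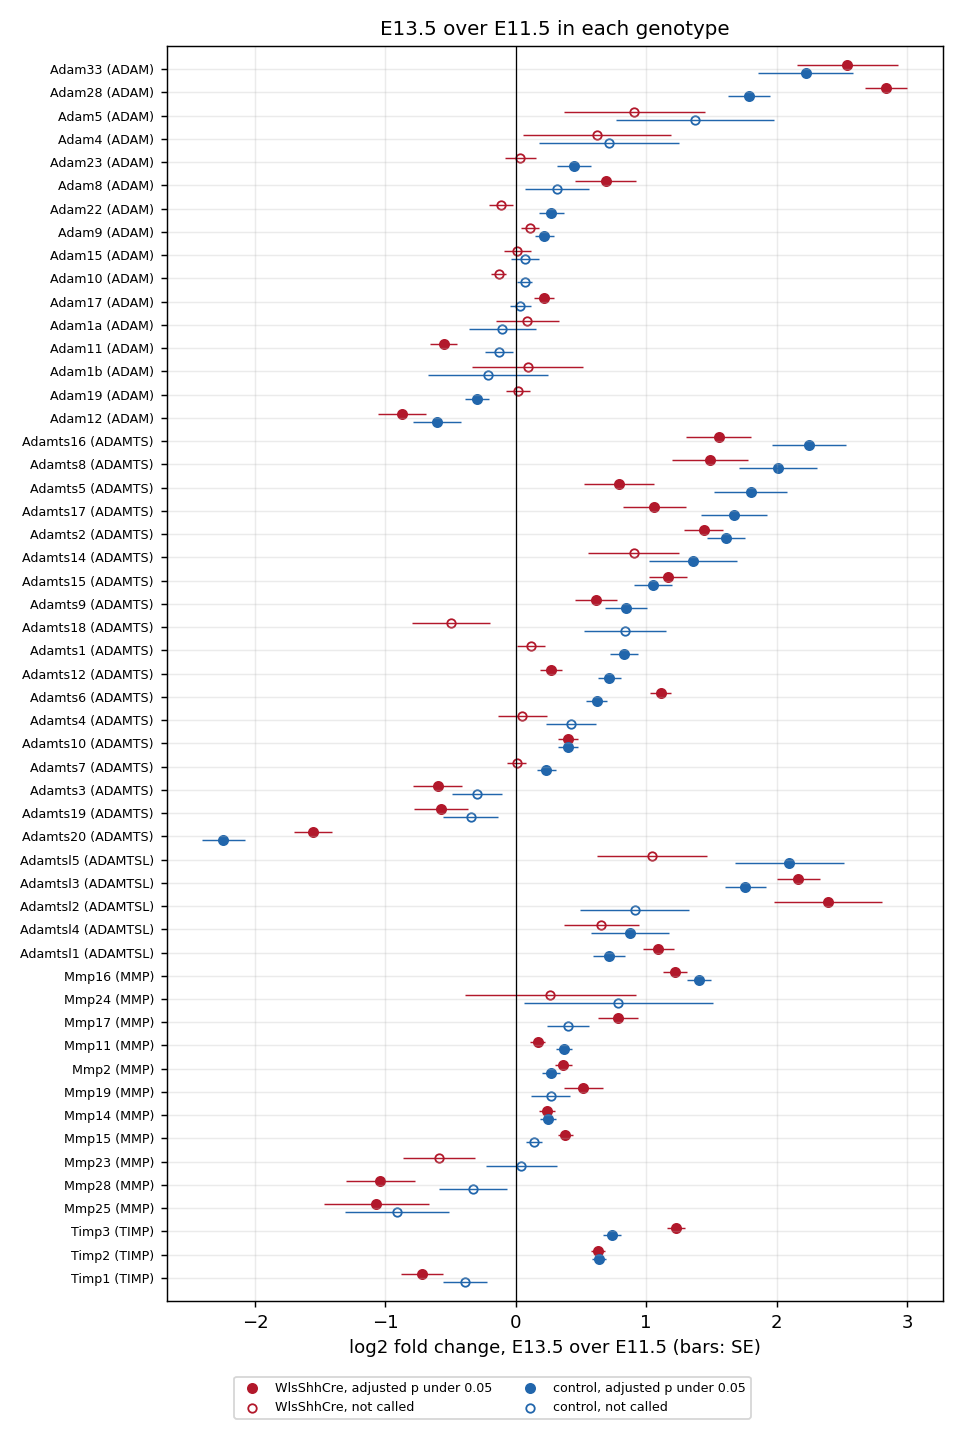
Log2 fold change of E13.5 over E11.5 with its SE for 53 tested genes, in WlsShhCre and in controls, by family (Mmp7, with no count in 1 group, is left out). Most symbols lie right of 0, the ADAMTS and ADAMTSL genes up to 2.39, and Adamts20 lies farthest left at -1.56 and -2.24.

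Related genes were followed beside the families, 27 tested regulators and partners of these proteases and 22 tested substrates. At E11.5 no gene of either group was called between genotypes (edgeR), with 7 regulators and 4 substrates at an unadjusted p under 0.05. The share of all genes under that threshold was not counted. At E13.5, 5 of 27 regulators (18.5%) were called, 1 higher and 4 lower, beside 11.8% of all genes, of which 5.97% were higher and 5.81% lower. Tll1, a tolloid protease that cuts procollagen C-propeptides, rose, with 25.9 and 21.4 CPM in WlsShhCre against 7.49 and 6.09 CPM in controls and a log2 fold change of 1.80 ± 0.22 (SE; adjusted p = 0.000357). Bmp1, the founding member of the same protease group, fell, with 280 and 261 CPM in WlsShhCre against 338 and 361 CPM in controls (-0.37 ± 0.06; adjusted p = 0.000961). The enhancers of this cleavage, Pcolce and Pcolce2, fell by 0.54 and by 0.95 on the log2 scale, and the testican gene Spock2 by 0.55.

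Of the 22 substrates, 6 (27.3%) were called at E13.5, 1 higher and 5 lower, beside the same 11.8% of all genes. The fibrillar collagen chain genes Col1a2 and Col3a1 fell, Col1a2 with 2787 and 3296 CPM in WlsShhCre against 3826 and 4213 CPM in controls (-0.40 ± 0.09; adjusted p = 0.0125). Vcan, which encodes versican, the proteoglycan cut by ADAMTS1, had 1063 and 1001 CPM in WlsShhCre against 1208 and 1388 CPM in controls (-0.33 ± 0.08; adjusted p = 0.0157). Thbs1, thrombospondin 1, fell by 0.36 on the log2 scale. Bcan, the gene of brevican, had 0.645 and 0.351 CPM in WlsShhCre against 2.81 and 2.53 CPM in controls. Cdh1, E-cadherin, cut by ADAM10 and itself one of the epithelium markers above, rose, with 192 and 191 CPM in WlsShhCre against 132 and 137 CPM in controls. The interaction was called for 1 of 27 regulators (3.7%) and 2 of 22 substrates (9.09%), beside 3.34% of all genes. The regulator was Tll1 (2.44 ± 0.34, edgeR adjusted p = 0.0026). The substrates were Thbs1 (-0.67 ± 0.09, adjusted p = 0.0013) and L1cam (-0.83 ± 0.18, adjusted p = 0.0232), a neural adhesion molecule shed by ADAM10.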

How the data were processed

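RNA of whole tracheae was measured in 8 libraries, 2 in each of 4 groups set by the stage and genotype in the labels. The authors deposited 1 table per stage with an estimated count per gene and library, of which 76.19% to 82.55% of the values above 0 were not whole numbers, and a read density, which the values show to be an RPKM scaled to the column's own total. Per the submitters' processing notes the reads were processed against mm9 with DESeq, Cufflinks 2.0.2, TopHat2 2.0.8 and Bowtie2 2.1.0; the role of each tool and the gene annotation are not given in the sources used here. Per the labels' protocols the libraries were made with a transposition kit, which does not keep strand.

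Counts were summed by symbol (Adamtsl5 had 2 entries in each table), rounded, and scaled by TMM, with factors from 0.9798 to 1.02. Entries that name no gene held at most 0.02525% of a library and were left out. edgeR 4.0.16 in R 4.3.3 fitted 1 mean per group to all 8 libraries (glmQLFit, robust, 4 residual degrees of freedom) over the 14901 genes kept by filterByExpr. The biological coefficient of variation was 7.79%, and replicates correlated at 0.990 to 0.992 (Pearson, log2 CPM). The steps were tested on simulated data. Adjustment followed Benjamini and Hochberg across the 14901 genes, and a gene was called at an adjusted p under 0.05. The comparisons share libraries: each genotype effect enters the interaction, and each group enters a genotype and a stage effect. Gene model lengths, as implied by count and RPKM, differed between the tables for 1067 of 17932 genes. RPKM values were not tested.

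Alternatives were limma-voom (limma 3.58.1), DESeq2 1.42.0, relative log expression (RLE) scaling, no filter on low counts, only the 4 libraries compared, the replicate number as a block, each library left out in turn, and, added after the data were seen, gene model length as an offset. Values were given for genes called in a genotype effect or the interaction, the 20 called genes with the largest stage effect in controls, every Timp, the gene with the highest level of each role group, and genes counted in 1 group only. Adam12, Adam17, Adamtsl2, Adamts5 beside Adamts1, and the genes listed at E11.5 were named after their values were seen. The genes, the role, regulator and substrate lists, and the marker lists (epithelium, smooth muscle, cartilage, endothelium, myeloid, neuron and glia, skeletal muscle, cardiac, erythroid, sex-linked and intestine) were chosen with earlier results of these data known. Exon overlaps came from GENCODE M21 and promoter windows and gene order from RefSeq (GRCm38.p6), a later build than mm9, so no coordinate was carried between builds. A CArG box (the motif of serum response factor) was also searched and found in no window of the tested genes, beside 1.63% of all windows.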

Additional observations from a re-analysis of the deposited data

Results flagged for a closer look

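The genotype effect (WlsShhCre over control, log2) of 4 genes differed between E13.5 and E11.5 by the test of the interaction (edgeR, 2 libraries a group). The difference was 1.05 for Adam28, 0.49 for Timp3 and 0.49 for Adamts6, each with a more positive effect at E13.5, in 2 of 2 E13.5 mutants above both controls. It was -0.71 for Adamts1, whose mutants lay below both controls at E13.5 and above both at E11.5. Their adjusted p-values were 0.0279, 0.0138, 0.0310 and 0.0452 in this order, and each was lost when some library was left out.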

How the results depend on the processing

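The count of genes called between genotypes was 8 at E13.5; leaving out each library in turn gave 5 to 10, with 5 without E13.5 control replicate 2. Adam28 and Timp3 were the 2 of the 8 that remained called in every alternative. At E11.5 the count was 0, against 1 with only the 4 libraries compared and 0 to 1 over the libraries left out. For the interaction it was 4, against 2 with DESeq2, 2 with limma-voom and 0 to 6 over the libraries left out. The cause of these shifts was not tested. Stage counts stayed within 1.5 times under every alternative run. Same-numbered libraries did not deviate together (correlations -0.0624 to 0.045), which cannot show that they share no litter or batch. The labels do not say whether they do. With the replicate block the counts were 12 at E13.5 and 0 at E11.5. For the interaction the count was then 7, and for the stage effects 33 in WlsShhCre and 31 in controls. Among single genes, the uncalled interaction of Timp2 (-0.008) turned to 0.051, 0.005, 0.014 and 0.008 in 4 of the fits that left out a library (range -0.062 to 0.051), and the uncalled stage effect of Adamts1 in WlsShhCre (0.12) to -0.06 without E13.5 WlsShhCre replicate 2 (range to 0.277). Low counts limit Mmp7 and the 15 untested genes with few counts.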
